A study of Mus musculus with 8 samples.

Results

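Interleukins and their receptors were compared in unsorted mammary cell suspensions of parous mice and of virgin controls of the same age. Members were all genes on the array with a probe set whose only annotated symbol begins with Il and a digit, each read from its probe set with the highest mean. The rule gave 76 genes on 80 probe sets, of 19937 genes and 34760 probe sets in all. By role, 36 were ligands, 33 were receptor chains, 6 were inhibitors (decoy receptors, binding proteins and receptor antagonists) and 1, Il1bos, was a transcript antisense to Il1b.

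The 4 parous arrays came from FVB/NHanHsd mice that were mated at 42 days of age, went through pregnancy and lactated for 21 days. The labels give 28 days of involution before harvest, whereas the methods state a longer period. The 4 virgin arrays came from age-matched FVB/NHanHsd females kept alongside them. Each array held RNA of 1 pool of 4th mammary glands from 5 mice, hybridised to the Affymetrix Mouse Gene 1.0 ST array, and neither the age at harvest nor the estrous stage of each pool is given in the sources used here. Lymph nodes and adipocytes had been removed, red blood cells lysed and fibroblasts reduced by attachment, but leukocytes had not been sorted out, so immune cells of the gland remained in both groups. Values are log2 RMA values (background corrected, normalised between arrays and summarised to 1 value per probe set), and a fold change is the parous mean minus the virgin mean on that scale.

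Interleukins are secreted proteins through which leukocytes, epithelium and stroma signal to each other, and each acts through a receptor built of a few chains, many of them shared between ligands. The IL-1 and IL-17 families signal through adaptor proteins to NF-kB, whereas most other interleukins signal through Janus kinases and STAT transcription factors. In the mammary gland, STAT3 and cytokines of the IL-6 family are known for their part in involution after weaning.

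Only Il1a, the ligand IL-1 alpha, passed the criteria of a fold change over 1.5 with an adjusted p under 0.05, and it fell in cells from parous mice. Il6, the ligand of the IL-6 receptor, had the highest fold change of the members in the other direction and did not pass. Since these are the members at which the description starts, the 250 bases before the transcription start of each are shown (RefSeq, GRCm38.p6; Il1a at chr2:129309973-129310222 on the minus strand, Il6 at chr5:30012864-30013113 on the plus strand). The start is that of the RefSeq promoter window: in Il1a the annotated gene reaches further upstream and 214 of the 250 bases lie inside it, and in Il6 0 do. Capitals mark matches to the AP-1 motif TGANTCA, searched on both strands.
Il1a: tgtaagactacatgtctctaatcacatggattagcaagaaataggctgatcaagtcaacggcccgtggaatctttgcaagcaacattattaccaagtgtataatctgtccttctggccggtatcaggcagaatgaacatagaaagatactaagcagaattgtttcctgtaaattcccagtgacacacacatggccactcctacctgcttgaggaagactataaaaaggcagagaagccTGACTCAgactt
Il6: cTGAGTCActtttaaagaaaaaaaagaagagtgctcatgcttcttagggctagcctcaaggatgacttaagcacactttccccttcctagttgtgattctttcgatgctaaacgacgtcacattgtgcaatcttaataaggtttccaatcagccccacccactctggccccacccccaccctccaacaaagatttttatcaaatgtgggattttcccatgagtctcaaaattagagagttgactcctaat
The match lay 12 bases before the start in Il1a and 249 bases before it in Il6. Of the 76 members, 59 had at least 1 such window, and 14 of these 59 genes held the AP-1 motif in it, against 7.82% of all 27025 genes with a window. The STAT motif TTCNNNGAA was found in 9 of the 59, against 8.13% of all genes. The letters GGGNNTTCC, the only form of the NF-kB motif searched, were found in 2 (Il13ra1 and Il2ra), against 5.61%. Forms with a longer gap between GGG and TTCC, such as gggattttcc in the Il6 window, were not counted. The count therefore does not show that other members lack an NF-kB motif. The matches describe the letters in the window and say nothing of binding.

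Most ligands were dim. A gene was called dim where a group mean lay below 6.29, the lowest median of the 8 arrays, a level at which background and signal are hard to separate on an array. In both groups, 32 of the 76 members were dim: 21 of 36 ligands, 7 of 33 receptors, 3 of 6 inhibitors and Il1bos. Over all genes, 37.8% were dim in both groups. The dim ligands included the signature cytokines of T helper cells (Il2, Il4, Il5, Il13, Il17a and Il17f). Another 3 members were dim in 1 group: Il24 and Il17rb in the parous group, and Il1f9 in the virgin group. That left 41 members above the dim level in both groups, of which 13 were ligands, 25 receptors and 3 inhibitors.

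No member passed with a higher level in the parous group (background: 0.181% of all genes), and 1 of 76 passed with a lower level (background: 0.221%). At an unadjusted limma p under 0.05, 9 members were higher in the parous group (11.8%, against 6.54% of all genes) and 5 were lower (6.58%, against 7.50%). The parous and virgin arrays did not overlap for 5 members that were higher in the parous group (6.58%, against 4.61% of all genes): Il6, Il34, Il18r1, Il17re and Il10rb. They did not overlap for 3 that were lower (3.95%, against 4.95%): Il1a, Il17b and Il21. The 9 members with higher values at an unadjusted p came to 4 without virgin replicates 2 and 4 and to 5 with an ordinary unpaired test for each gene, so this count was not stable. With 4 arrays a group, the exact 2-sided permutation test over the 70 splits of the arrays cannot go below p = 0.029, the value of every member without overlap.

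**Figure D1:**
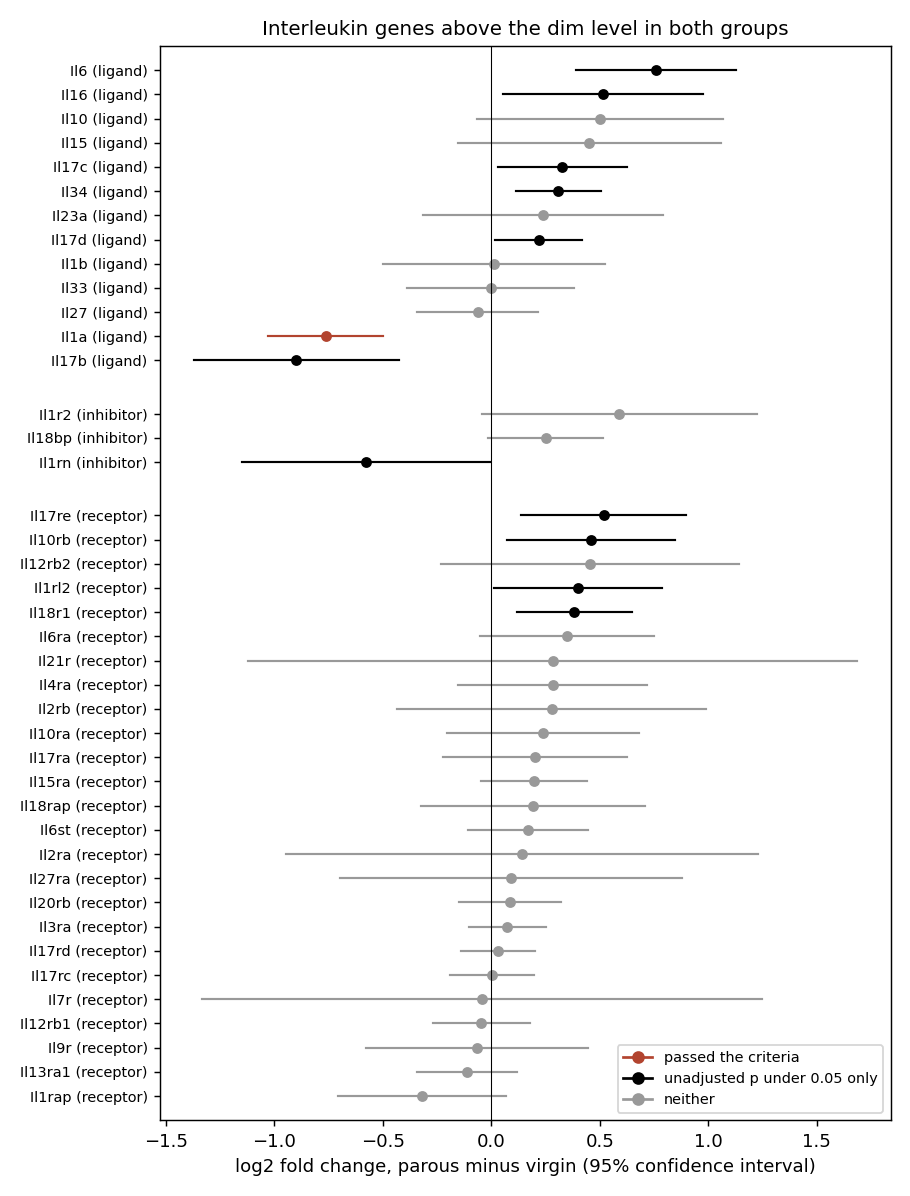
Log2 fold change (parous minus virgin, x axis) with its 95% confidence interval for the 41 members above the dim level in both groups, as 13 ligands, 3 inhibitors and 25 receptors from top to bottom. Il1a alone is marked as past the criteria, and 20 of the 25 receptors lie to the right of 0.

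The arrays themselves have a bearing on these values. Array medians ran between 6.34 and 6.37 in the parous group and between 6.29 and 6.43 in the virgin group, and correlations between arrays between 0.976 and 0.993. On the first principal component of all probe sets, virgin replicates 2 and 4 lay at 32.7 and 66.8, away from the other 6 arrays at -25.8 to -9.35. The epithelial keratin genes Krt8 and Krt18 were far above the dim level in both groups (Krt8 averaged 13.11 in parous cells and 13.28 in virgin cells, n = 4 each). The leukocyte genes Ptprc (9.62 in parous cells and 9.47 in virgin cells) and Cd3e (10.30 in parous cells and 10.10 in virgin cells) were also well above it. All 8 fibroblast genes listed were measured, 6 with fold changes above 0, and none passed. At an unadjusted limma p under 0.05, 4 were higher in the parous group, against 6.54% of all genes. Their mean, centred on the 8 arrays, ran from -0.17 to 0.45 on the parous arrays and from -0.39 to 0.13 on the virgin arrays. The part of fibroblasts in the interleukin values was not tested. In these bulk suspensions, fewer cells of a type and less RNA per cell cannot be told apart.

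Among the ligands of the IL-1 family, Il1a, an alarm cytokine that epithelial cells hold ready and release on damage, had 6.48, 6.68, 6.18 and 6.37 in parous replicates 1 to 4, against 7.05, 7.28, 7.16 and 7.26 in virgin replicates 1 to 4. The groups did not overlap, with the parous arrays the lower ones, and the parous mean was only just above the dim level. Il1a averaged 6.43 ± 0.21 in parous cells and 7.19 ± 0.11 in virgin cells (SD, n = 4 each), a log2 fold change of -0.76 ± 0.12 (SE; 95% confidence interval -1.03 to -0.50) or 1.70-fold lower. limma gave an adjusted p of 0.037. This call was close to the threshold: it was kept in 1 of the 8 fits that left out an array (without parous replicate 2, adjusted p = 0.046) and lost in the other 7, where limma's adjusted p lay between 0.069 and 0.148, while the log2 fold change stayed between -0.85 and -0.68 in all 8.

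Several lists of epithelial genes were lower in the parous group beside Il1a. In the keratinocyte list, of the 9 genes listed 8 were measured, and Krt4, Krt6a and Sprr1a passed with lower levels in the parous group, while Krt1, Krt10, Krt13, Lor and Ivl were dim in both groups, Krt13 and Ivl with fold changes above 0. The mean of the list, which these 3 genes carry, centred on the 8 arrays, lay between -0.64 and -0.31 on the parous arrays and between 0.30 and 0.51 on the virgin arrays, with no overlap. All 9 basal and myoepithelial genes were measured, 7 with fold changes below 0, and Krt17 passed with a lower level. Their centred mean ran from -0.30 to -0.11 on the parous arrays and from 0.01 to 0.31 on the virgin arrays. Of the 12 luminal genes 10 were measured, 9 with fold changes below 0 and none that passed, and their centred mean ran from -0.26 to -0.13 on the parous arrays and from -0.05 to 0.30 on the virgin arrays. The part of any of these genes' cells in the value of Il1a was not tested.

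The other IL-1 family ligands above the dim level did not separate the groups. Il1b, the inflammasome-processed relative of Il1a, averaged 7.62 ± 0.28 in parous cells and 7.61 ± 0.43 in virgin cells (SD, n = 4 each), with a log2 fold change of 0.01 (95% confidence interval -0.50 to 0.52). Il33, a nuclear alarm cytokine of epithelium and endothelium, averaged 8.75 ± 0.17 in parous cells and 8.75 ± 0.33 in virgin cells, and its interval ran from -0.39 to 0.38. Neither interval shows that the levels were equal. Il18 was dim in both groups, as were Il1f6, Il1f8 and Il1f10. Il1f9, an IL-36 ligand, was at 6.57, 6.97, 6.01 and 6.41 on the parous arrays, against 7.21, 6.24, 5.84 and 5.19 on the virgin arrays, with wide overlap.

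The 3 inhibitors above the dim level had fold changes of both signs, and none passed. Il1rn, the antagonist that occupies the IL-1 receptor without activating it, had 8.31, 8.23, 7.43 and 8.04 in parous replicates 1 to 4, against 8.78, 8.93, 7.98 and 8.63 in virgin replicates 1 to 4. The groups overlapped through virgin replicate 3, and parous replicate 3 was the lowest of all. Il1rn averaged 8.00 ± 0.40 in parous cells and 8.58 ± 0.42 in virgin cells (SD, n = 4 each), a log2 fold change of -0.58 ± 0.25 (SE) that did not pass (limma adjusted p = 0.43). Within each same-numbered pair the parous array was the lower, and with the replicate number as a block limma's adjusted p was 0.091. Pairing by number was not established. The decoy receptor Il1r2, which binds IL-1 but does not signal, had a fold change of opposite sign: 8.63, 8.30, 8.06 and 8.50 on the parous arrays, against 8.22, 7.36, 8.36 and 7.18 on the virgin arrays. Its log2 fold change of 0.59 ± 0.28 (SE) did not pass either (limma adjusted p = 0.47), and it came to 0.08 without virgin replicates 2 and 4, the lowest arrays for it. Il18bp, which captures IL-18, averaged 8.03 ± 0.11 in parous cells and 7.78 ± 0.21 in virgin cells, with a limma adjusted p of 0.46.

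None of the 6 receptor chains of the IL-1 family among the members passed, and their fold changes had both signs (4 above 0 and 2 below). No probe set used here named Il1r1, the signaling receptor for IL-1, or Il1rl1, that for IL-33, so neither was measured. Il18r1, the ligand-binding chain for IL-18, had 8.53, 8.25, 8.35 and 8.31 in parous replicates 1 to 4, against 8.06, 7.79, 8.23 and 7.84 in virgin replicates 1 to 4. All parous arrays were above all virgin arrays, though parous replicate 2 exceeded virgin replicate 3 by a narrow margin. Il18r1 averaged 8.36 ± 0.12 in parous cells and 7.98 ± 0.20 in virgin cells (SD, n = 4 each), a log2 fold change of 0.38 ± 0.12 (SE; limma adjusted p = 0.26). Virgin replicates 2 and 4 were the lowest arrays of Il18r1, and the log2 fold change came to 0.22 without them. Its co-receptor Il18rap averaged 6.71 ± 0.50 in parous cells and 6.51 ± 0.12 in virgin cells and overlapped. Il1rl2, the receptor chain for the IL-36 ligands, had 7.89, 8.06, 8.14 and 8.52 on the parous arrays, against 7.49, 7.57, 7.86 and 8.09 on the virgin arrays. It overlapped between the groups and did not pass (log2 fold change 0.40 ± 0.17, SE; limma adjusted p = 0.42). Il1rap, the accessory chain shared by the receptors for IL-1, IL-33 and IL-36, had a log2 fold change of -0.32 ± 0.17 (SE), the lowest among the 33 receptors, with a limma adjusted p of 0.53. Virgin replicates 2 and 4 were the highest arrays of Il1rap, and its log2 fold change came to -0.05 without them.

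**Figure D2:**
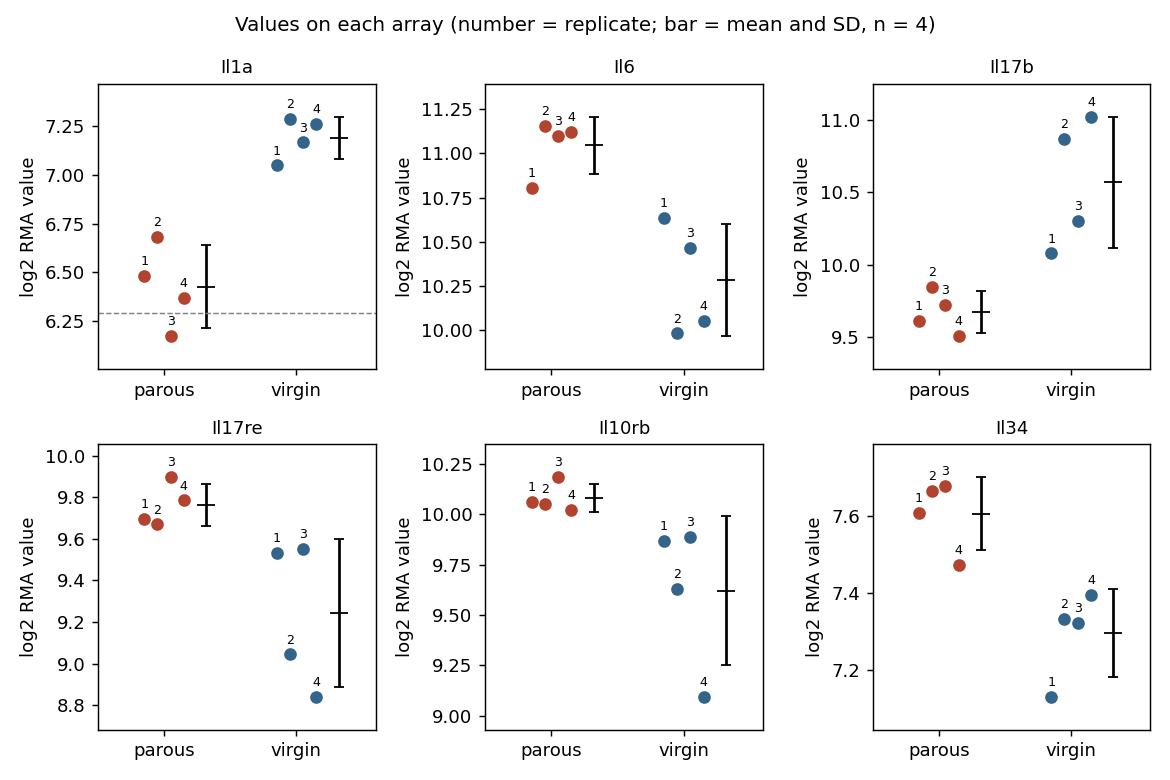
Log2 RMA values (y axis, with a scale of its own in each panel) of Il1a, Il6, Il17b, Il17re, Il10rb and Il34 on each array, parous left and virgin right, with the mean and SD (n = 4) as a bar and the replicate number above each point. In all 6 panels the parous and virgin arrays do not overlap, and the dashed line in the Il1a panel is the dim level of 6.29.

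In the IL-6 branch, Il6 itself had 10.80, 11.16, 11.10 and 11.12 in parous replicates 1 to 4, against 10.64, 9.98, 10.47 and 10.05 in virgin replicates 1 to 4. Every parous array lay above every virgin array, with parous replicate 1 closest to the virgin arrays and virgin replicates 2 and 4 lowest. Il6 averaged 11.04 ± 0.16 in parous cells and 10.28 ± 0.32 in virgin cells (SD, n = 4 each), a log2 fold change of 0.76 ± 0.16 (SE; 95% confidence interval 0.39 to 1.13) or 1.69-fold higher, and it did not pass (limma adjusted p = 0.12). Over its 18 alternatives, the log2 fold change of Il6 ranged from 0.49 to 0.90 and the adjusted p, from limma or an ordinary unpaired test for each gene, from 0.065 to 0.338. The lowest fold change was the one without virgin replicates 2 and 4.

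The receptor chains for IL-6 overlapped between the groups. Il6ra, which binds IL-6, had 10.38, 10.27, 10.45 and 10.32 on the parous arrays, against 10.30, 9.95, 10.30 and 9.48 on the virgin arrays. Virgin replicates 2 and 4 were its lowest arrays, and the log2 fold change of 0.35 ± 0.18 (SE; limma adjusted p = 0.51) came to 0.06 without them. Il6st, the gp130 chain that transmits the signal of the whole IL-6 family, averaged 12.14 ± 0.04 in parous cells and 11.97 ± 0.25 in virgin cells (SD, n = 4 each), with a limma adjusted p of 0.67.

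A further list held ligands and receptors of the interleukin families and of related cytokines that do not carry an interleukin symbol. Of these genes (Lif, Osm, Lifr, Osmr, the colony stimulating factors and others), 21 of 22 were measured and none passed. Their fold changes were above 0 for 16 of the 21. The largest changes in this list were those of Cntfr, the receptor chain for ciliary neurotrophic factor, which averaged 8.77 ± 0.07 in parous cells and 9.25 ± 0.15 in virgin cells (log2 fold change -0.48 ± 0.09, SE; limma adjusted p = 0.089), and of Cxcr2, a chemokine receptor of neutrophils that was dim in both groups (log2 fold change 0.44 ± 0.22, SE; limma adjusted p = 0.52).

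The IL-12 branch gave no member at an unadjusted p under 0.05. Il12a and Il12b were dim in both groups. Il23a, the subunit that pairs with IL-12B to form IL-23, averaged 8.54 ± 0.21 in parous cells and 8.30 ± 0.52 in virgin cells (SD, n = 4 each), and overlapped. The receptor chain Il12rb2, found on T helper 1 and natural killer cells, had a log2 fold change of 0.45 ± 0.30 (SE; limma adjusted p = 0.64). It came to 0.16 without virgin replicates 2 and 4.

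The IL-17 family held the lowest fold change among members above the dim level and the highest among receptors. Il17b, a family member that signals through Il17rb, had 9.61, 9.84, 9.72 and 9.51 in parous replicates 1 to 4, against 10.08, 10.87, 10.30 and 11.02 in virgin replicates 1 to 4. The groups did not overlap, and virgin replicates 2 and 4 were the highest arrays. Il17b averaged 9.67 ± 0.14 in parous cells and 10.57 ± 0.45 in virgin cells (SD, n = 4 each), a log2 fold change of -0.90 ± 0.21 (SE; 95% confidence interval -1.37 to -0.43) or 1.86-fold lower, and it did not pass (limma adjusted p = 0.15). Without virgin replicates 2 and 4 its log2 fold change came to -0.52. The mean of proliferation genes was also highest on those arrays: the centred mean of 14 measured genes of 15 lay between -0.81 and -0.39 on the parous arrays, and it was 1.11 and 1.64 on virgin replicates 2 and 4 and between -0.25 and -0.19 on the other virgin arrays. None of the 14 passed, and Pcna was instead lowest on virgin replicates 2 and 4 (12.14 and 11.59). The part of the proliferation genes in the value of Il17b was not tested.

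Il17rb, the receptor chain that binds IL-17B, was near the dim level, with 6.23, 6.07, 6.09 and 5.82 on the parous arrays, against 6.26, 6.52, 6.3 and 6.23 on the virgin arrays. The groups overlapped at one end, and the log2 fold change of -0.27 ± 0.11 (SE) did not pass (limma adjusted p = 0.39). The epithelial pair Il17c and Il17re had fold changes above 0 that did not pass. Il17re, the receptor chain through which IL-17C acts, had 9.70, 9.67, 9.90 and 9.78 in parous replicates 1 to 4, against 9.53, 9.04, 9.55 and 8.84 in virgin replicates 1 to 4. All parous arrays were above all virgin arrays, by a narrow margin over virgin replicates 1 and 3. Il17re averaged 9.76 ± 0.10 in parous cells and 9.24 ± 0.36 in virgin cells (SD, n = 4 each), a log2 fold change of 0.52 ± 0.17 (SE; limma adjusted p = 0.29) that came to 0.22 without virgin replicates 2 and 4.

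Its ligand Il17c, made by epithelial cells, had 6.55, 6.51, 6.74 and 6.82 on the parous arrays, against 6.54, 6.39, 5.99 and 6.38 on the virgin arrays. These levels were close to the dim level, the groups overlapped through virgin replicate 1, and the log2 fold change of 0.33 ± 0.13 (SE) did not pass (limma adjusted p = 0.39). Il17d had 6.69, 6.95, 7.0 and 6.96 on the parous arrays, against 6.66, 6.61, 6.73 and 6.72 on the virgin arrays. Parous replicate 1 lay among the virgin arrays and the other parous arrays above them (log2 fold change 0.22 ± 0.09, SE; limma adjusted p = 0.39). The common chain Il17ra, used by most IL-17 family receptors, had a log2 fold change of 0.20 ± 0.19 (SE), and Il17rc, its partner for IL-17A and IL-17F, one of 0.00 ± 0.08 (SE).

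For the relays below the IL-1 and IL-17 receptors, 25 of 28 listed genes were measured and none passed. At an unadjusted p under 0.05, 5 were higher in the parous group and none lower (5 of 25, against 6.54% of all genes with higher values), and the parous and virgin arrays of all 5 did not overlap (against 4.61% of all genes). Among them were Casp1, the protease that matures IL-1 beta and IL-18 (7.50 ± 0.09 in parous cells and 7.14 ± 0.06 in virgin cells, limma adjusted p = 0.11), Irak3, a brake on IL-1 receptor signaling (10.22 ± 0.11 in parous cells and 9.71 ± 0.38 in virgin cells, limma adjusted p = 0.32), and Nfkbiz, an NF-kB cofactor needed for part of the IL-17 response (11.02 ± 0.09 in parous cells and 10.63 ± 0.19 in virgin cells, limma adjusted p = 0.20). The others were Nlrp3, an inflammasome sensor, and Nfkbia, the NF-kB inhibitor. Irak3, Nfkbiz, Nlrp3 and Nfkbia, but not Casp1, were lowest on virgin replicates 2 and 4. Irak3 had 9.59 and 9.22 on these arrays, against 9.99 and 10.04 on virgin replicates 1 and 3. Nfkbia had 12.44 and 12.20, against 12.70 and 12.67.

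In the IL-10 family, Il10rb, the chain shared by the receptors for IL-10, IL-22 and the lambda interferons, had 10.06, 10.05, 10.18 and 10.02 in parous replicates 1 to 4, against 9.87, 9.63, 9.89 and 9.09 in virgin replicates 1 to 4. The groups did not overlap, and virgin replicate 4 lay far below the other virgin arrays. Il10rb averaged 10.08 ± 0.07 in parous cells and 9.62 ± 0.37 in virgin cells (SD, n = 4 each), a log2 fold change of 0.46 ± 0.17 (SE; limma adjusted p = 0.35), which came to 0.20 without virgin replicates 2 and 4. Il10ra, the chain particular to the IL-10 receptor, averaged 7.72 ± 0.17 in parous cells and 7.48 ± 0.40 in virgin cells and overlapped. Ifnlr1, which joins Il10rb in the receptor for the lambda interferons, had a fold change of opposite sign. Its log2 fold change of -0.40 ± 0.16 (SE) did not pass (limma adjusted p = 0.39), and the groups overlapped.

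Il10, a cytokine that restrains inflammation, had 7.48, 7.22, 7.18 and 7.59 on the parous arrays, against 7.40, 6.90, 7.04 and 6.12 on the virgin arrays. Only virgin replicate 1 lay among the parous arrays, and virgin replicate 4 was far below (log2 fold change 0.50 ± 0.25, SE; limma adjusted p = 0.50). Without virgin replicates 2 and 4 the log2 fold change of Il10 came to 0.15. Il24 had the widest virgin spread of the ligands named here: 5.77, 6.27, 5.66 and 5.59 on the parous arrays, against 6.05, 8.34, 5.50 and 7.74 on the virgin arrays. Its log2 fold change of -1.08 ± 0.59 (SE) was the lowest of all 76 members, did not pass (limma adjusted p = 0.54) and came to 0.05 without virgin replicates 2 and 4, on which alone it was far above the dim level.

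Il34 and Il16, ligands that belong to no large family, had fold changes above 0 and did not pass. Il34, a ligand of the CSF1 receptor that sustains macrophages of epithelial tissues, had 7.61, 7.66, 7.68 and 7.47 in parous replicates 1 to 4, against 7.13, 7.33, 7.32 and 7.40 in virgin replicates 1 to 4. No array of one group lay within the other, and, unlike Il6 or Il17re, Il34 was not lowest on virgin replicates 2 and 4. Il34 averaged 7.61 ± 0.09 in parous cells and 7.30 ± 0.11 in virgin cells (SD, n = 4 each), a log2 fold change of 0.31 ± 0.09 (SE; limma adjusted p = 0.22), with 0.38 without virgin replicates 2 and 4. All 12 macrophage markers listed were measured, none passed and all 12 had fold changes above 0. Their centred mean overlapped between the groups, from -0.13 to 0.39 on the parous arrays and from -0.38 to 0.07 on the virgin arrays. Of the single markers only Cd14 did not overlap (11.73 ± 0.03 in parous cells and 11.38 ± 0.10 in virgin cells, limma adjusted p = 0.12). The part of macrophage markers in the value of Il34 was not tested. Il16, a ligand of CD4 made by lymphocytes, had 7.66, 7.32, 7.47 and 7.57 on the parous arrays, against 7.18, 6.70, 7.51 and 6.57 on the virgin arrays. Virgin replicate 3 lay among the parous arrays, and the log2 fold change of 0.52 ± 0.20 (SE; limma adjusted p = 0.38) came to 0.16 without virgin replicates 2 and 4.

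The receptors of the common gamma chain family, which serve lymphocyte growth and survival, differed between replicates far more than between the groups. Il2rg, the common gamma chain itself, was not among the members and was not measured here. Il7r, needed for T and B cell survival and development, had 10.31, 8.70, 8.30 and 9.15 in parous replicates 1 to 4, against 9.34, 8.44, 10.53 and 8.32 in virgin replicates 1 to 4. Parous replicate 1 and virgin replicate 3 were high, and the other arrays of both groups lay together below them. The log2 fold change was -0.04 with a 95% confidence interval of -1.33 to 1.25, so that changes beyond the 1.5-fold criterion in either direction lay within the interval. Il21r had 11.08, 9.60, 8.92 and 9.89 on the parous arrays, against 10.0045, 9.16, 10.93 and 8.27 on the virgin arrays. The same arrays were highest, and its interval ran from -1.12 to 1.69. Il2ra, Il2rb and Il9r of this family, and Il27ra of the IL-12 branch, also had their highest values in each group on these arrays. Il2ra had 8.84 on parous replicate 1 and 8.83 on virgin replicate 3, with 7.53 to 7.78 on the other parous arrays and 6.76 to 8.26 on the other virgin arrays.

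Lymphocyte markers were highest on the same arrays. The centred mean of the T cell markers (11 measured of 14) was 1.02 on parous replicate 1 and -0.60 to 0.15 on the other parous arrays, and it was 1.09 on virgin replicate 3 and -0.83 to 0.19 on the other virgin arrays. That of the B cell markers (7 measured of 8) was 1.06 on parous replicate 1 and 1.83 on virgin replicate 3, with -0.61 to -0.24 on the other parous arrays and -1.0 to 0.22 on the other virgin arrays. Neither list had a member that passed. Among the 25 receptors above the dim level, 8 were highest in their group on both parous replicate 1 and virgin replicate 3 (32%: Il17ra, Il18r1, Il21r, Il27ra, Il2ra, Il2rb, Il7r and Il9r), against 1154 of 11962 genes above the dim level (9.65%). Among the 13 ligands above the dim level it was only Il16. The part of lymphocyte numbers in these receptor values was not tested.

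**Figure D3:**
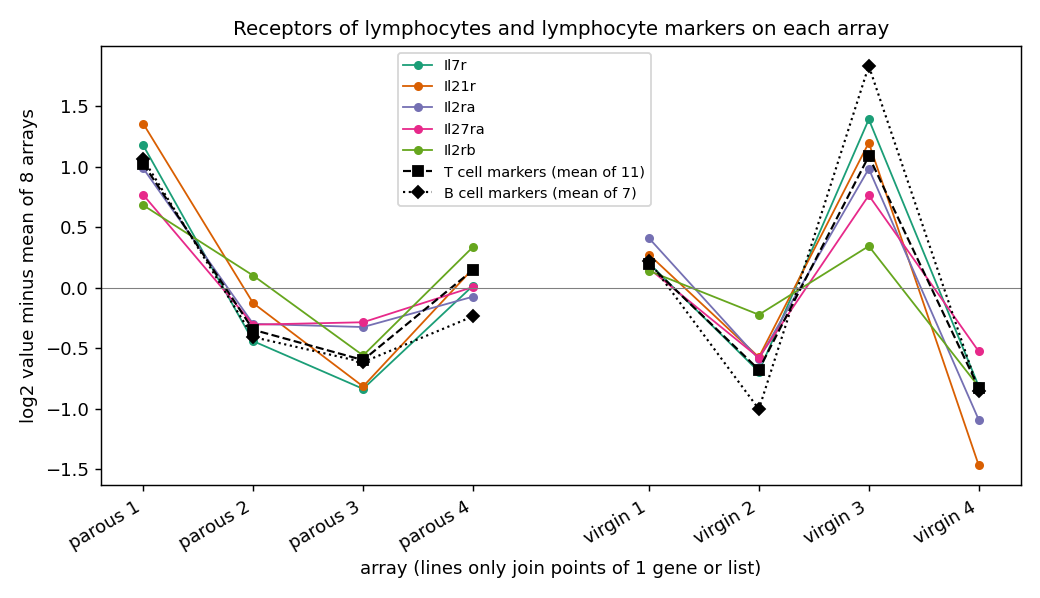
Log2 value minus the mean of the 8 arrays (y axis) of Il7r, Il21r, Il2ra, Il27ra and Il2rb and of the mean of the T cell and B cell markers, on each array (x axis, parous left). All 7 series are highest within their group on parous replicate 1 and virgin replicate 3, and the lines only join points of 1 gene or list.

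Receptors of this family with a broader distribution varied less. Il4ra, the chain that binds IL-4, had 11.53, 11.53, 11.35 and 11.52 on the parous arrays, against 11.58, 11.07, 11.49 and 10.66 on the virgin arrays. Virgin replicates 2 and 4 were low and the others overlapped with the parous arrays (log2 fold change 0.28 ± 0.19, SE; limma adjusted p = 0.64). Il13ra1, which joins Il4ra in the receptor for IL-13, averaged 10.77 ± 0.05 in parous cells and 10.88 ± 0.19 in virgin cells (SD, n = 4 each), and Il15ra, the chain that presents IL-15, 8.59 ± 0.17 in parous cells and 8.39 ± 0.13 in virgin cells. Il15 was the only ligand of the family above the dim level. It had 7.16, 7.45, 7.34 and 7.05 on the parous arrays, against 7.19, 6.52, 7.37 and 6.11 on the virgin arrays, and its log2 fold change of 0.45 ± 0.26 (SE; limma adjusted p = 0.58) came to -0.03 without virgin replicates 2 and 4. Il21 did not overlap between the groups (3.59 to 3.77 on the parous arrays and 3.79 to 3.89 on the virgin arrays) but was dim throughout, with a log2 fold change of -0.17 and a limma adjusted p of 0.41. In the common beta chain family, Il3 and Il5 were dim in both groups, and Il3ra averaged 8.19 ± 0.05 in parous cells and 8.12 ± 0.11 in virgin cells.

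Of the Janus kinases, STATs and SOCS feedback inhibitors that serve most of these receptors, 19 of 21 listed genes were measured and none passed. Cish, a feedback inhibitor induced by STAT5, was the only one at an unadjusted p under 0.05 (10.17 ± 0.08 in parous cells and 9.95 ± 0.09 in virgin cells, SD, n = 4 each; limma adjusted p = 0.35). Stat3 averaged 12.12 ± 0.11 in parous cells and 12.08 ± 0.07 in virgin cells, and Socs3, the feedback inhibitor of gp130 signaling, 11.48 ± 0.14 in parous cells and 11.27 ± 0.35 in virgin cells.

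By role, the median log2 fold change was 0.02 over the 36 ligands (20 above 0) and 0.11 over the 33 receptors (24 above 0), against 0.00 over all genes (50.7% above 0). Among members above the dim level it was 0.24 over 13 ligands (9 above 0) and 0.19 over 25 receptors (20 above 0), against -0.02 over all such genes (45.1% above 0). The median over all 33 receptors, 0.11, rested on virgin replicates 2 and 4: it came to -0.05 without them. Of the 25 receptors above the dim level, 18 had both of these arrays below virgin replicates 1 and 3 (72%), against 29.6% of all genes above the dim level. The reverse order, with both above, was found for 1 of the 25 receptors, Il1rap (4%), against 32.4% of all genes. Centred on the 8 arrays, the receptors averaged -0.11 to 0.31 on the parous arrays, against -0.22 and -0.43 on virgin replicates 2 and 4 and 0.07 and 0.24 on virgin replicates 1 and 3.

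**Figure D4:**
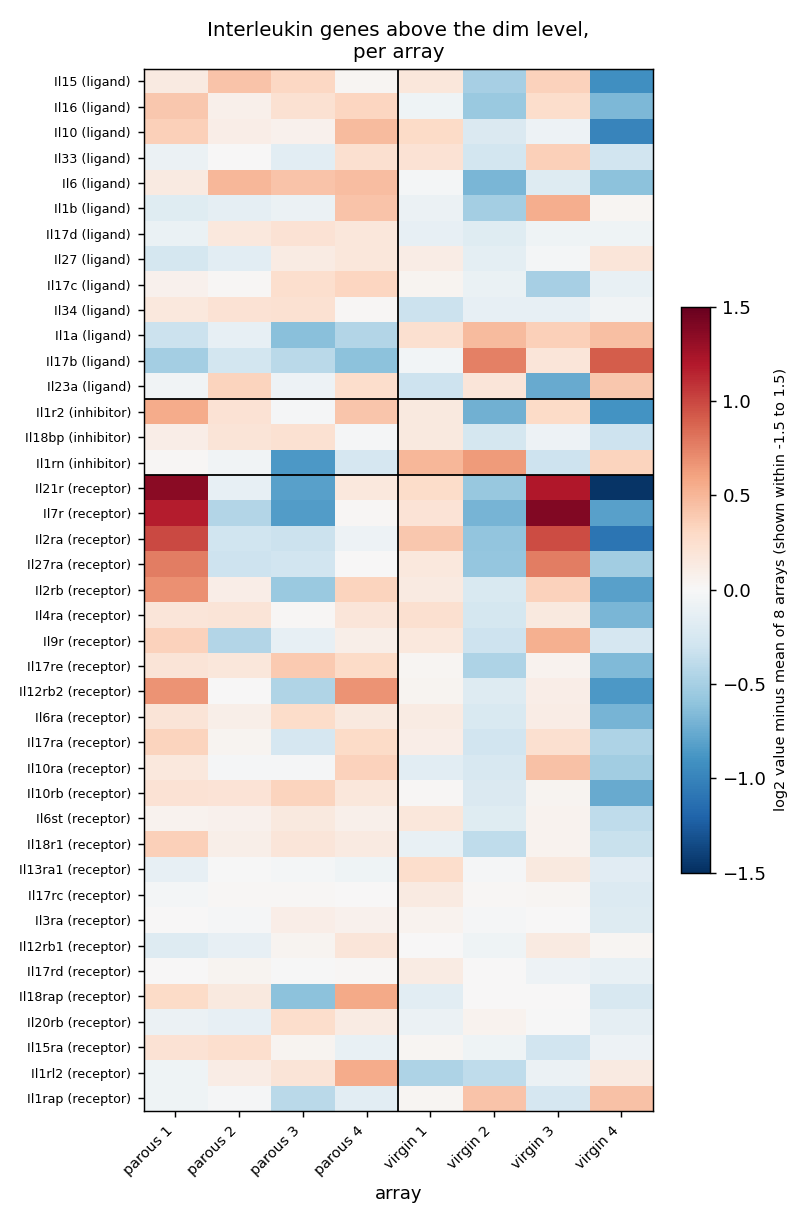
Log2 value minus the mean of the 8 arrays (colour, shown within -1.5 to 1.5) for the 41 members above the dim level (13 ligands, 3 inhibitors and 25 receptors), with the parous arrays in the left columns and the virgin arrays in the right ones. Lymphocyte receptors are red on parous replicate 1 and virgin replicate 3, and most receptors are blue on virgin replicates 2 and 4.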

How the data were processed

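The authors made log2 values with the RMA procedure of the affy package (background correction, quantile normalisation between arrays, 1 value per probe set) from Affymetrix Mouse Gene 1.0 ST arrays, and the deposited log2 table was used as it stands. The version of affy and the genome build of the annotation are not given in the sources used here. RMA compresses differences of dim probe sets, so fold changes near background are understated. The labels name 4 biological replicates a group, and the number of arrays limits the precision.

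All 34760 probe sets were fitted with limma 3.58.1 in R 4.3.3 (lmFit and eBayes, 2-sided, no covariate), with Benjamini-Hochberg adjustment over all of them. To pass, a gene needed an adjusted p under 0.05, a fold change over 1.5 and a mean over 4 on the linear scale. Of the probe sets, 21640 named 1 gene, 1321 several and 11799 none. The members, gene lists and tests were chosen with earlier results of these data known. Named were members that passed, those at an unadjusted p under 0.05, those without overlap and a log2 fold change over 0.4 in size, the highest members of each family, and partners of these (for instance Il1f9, Il17ra, Il18, Il18rap and Il21r). Il1b, Il7r, Il2ra, Il2rb, Il27ra, Il9r, Il12rb2, Il15, Il15ra, Il17rc, Il18bp, Il23a and Il24 were chosen after their values were seen. Alternatives covered the arrays left out, normalisation, array weights, variance model, an ordinary unpaired test for each gene (the methods name limma for the arrays and the unpaired test for comparisons in general), dim probe sets, the choice of probe set and a block by replicate number. The limma step was tested on simulated data. Figures were drawn with matplotlib 3.10.9 in Python 3.11.15.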

Additional observations from a re-analysis of the deposited data

Results flagged for a closer look

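In 4 of the 86 groups of 4 arrays tested over the 43 members named here, 1 array lay so far from the other arrays of its group that its gap to the nearest of them exceeded the 95% critical value of Dixon's test. Chance alone gives about 1 in 20 such groups. Il6 was at 10.80 on parous replicate 1, with the other parous arrays at 11.10 to 11.16. Il17d was at 6.69 on parous replicate 1, with the others at 6.95 to 7.0. Il4ra was at 11.35 on parous replicate 3, with the others at 11.52 to 11.53, and Il1b was at 8.04 on parous replicate 4, with the others at 7.43 to 7.53. All 4 were in the parous group, and none of them was a member that passed.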

How the results depend on the processing

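No interleukin gene passed with a higher level in the parous group under any of 22 alternatives. With a lower level, 1 gene, Il1a, passed, against 0 with the replicate number as a block (limma adjusted p = 0.098), without virgin replicates 2 and 4 (limma adjusted p = 0.234, log2 fold change -0.68), with array weights (limma adjusted p = 0.057), with an ordinary unpaired test for each gene (adjusted p = 0.136) and without parous replicate 1 and virgin replicate 3 together, the last chosen after seeing the data (limma adjusted p = 0.144). Leaving out 1 array gave 0 to 1. Where fewer arrays were fitted, the fit had less power by construction, and otherwise the cause was not tested. Same-numbered parous and virgin arrays deviated with correlations of 0.12, 0.18, -0.06 and 0.31. Parous replicates 2 and 4 correlated best with the virgin array of the same number, and parous replicates 1 and 3 with a virgin array of another number. The study describes independent experiments that each held parous and virgin mice, but no source used here says that a replicate number marks an experiment, so pairing was not established. The block changed no adjusted call other than that of Il1a. It took the limma adjusted p of Il1rn to 0.091, against 0.43 without it, and that of Il1rl2 to 0.18, against 0.42, while Il17c (0.060) and Il21 (0.066) no longer had an unadjusted p under 0.05.

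At an unadjusted p under 0.05, the 9 members with higher values became 4 without virgin replicates 2 and 4, 5 with the ordinary unpaired test and 6 to 13 with 1 array left out, and the 5 with lower values became 2 to 6 (3 without parous replicate 3, parous replicate 4 or virgin replicate 1, and 2 without virgin replicate 2). The median log2 fold change of the ligands, 0.02, became 0.24 with dim probe sets left out and 0.080 without parous replicate 1 and virgin replicate 3. The receptor median of 0.11 ranged from -0.05 to 0.22. Of the 43 named members, 25 kept 1 direction over 18 alternatives each and 18 did not, 9 of them only without virgin replicates 2 and 4, and none of the 42 other than Il1a passed anywhere. Quantile normalising again or centring each array moved the median of all probe sets to -0.01 at most, from 0.00. Levels near 6.29 bound what can be said of the 32 dim members.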

Other observations

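Natural killer cell and plasma cell markers, 2 of the immune lists not described above, had mostly higher values in the parous group. All 8 natural killer cell genes had fold changes above 0 and none passed. At an unadjusted limma p under 0.05, 4 of the 8 were higher, against 6.54% of all genes. Gzma, a granule protease, averaged 8.09 in parous cells and 7.49 in virgin cells (n = 4 each, limma adjusted p = 0.22). Of 7 innate lymphoid genes 6 were measured, all with fold changes above 0, and 3 were higher at an unadjusted limma p under 0.05. Fold changes were above 0 for 7 of 9 neutrophil, 7 of 9 mast cell and basophil and 3 of 6 pan-leukocyte genes. None of these passed. Of the 8 plasma cell genes, 6 had fold changes above 0, and Jchain, Tnfrsf17 and Derl3 passed with higher levels in the parous group. The 2 below 0 were Sdc1 (log2 fold change -0.24, limma adjusted p = 0.41) and Prdm1 (-0.09, limma adjusted p = 0.81). In the dendritic cell list all 9 genes were measured, 3 with fold changes above 0 and 6 below. Only Cd207, a marker of Langerhans cells, passed, with a lower level in the parous group, and it was dim in both groups. Cd209a averaged 9.59 in parous cells and 8.73 in virgin cells (limma adjusted p = 0.21), whereas Itgax averaged 6.44 in parous cells and 7.30 in virgin cells (limma adjusted p = 0.12).

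Another 3 probe sets name several genes each and were therefore not members: 2 that name both Iltifb and Il22, and 1 that names both Il4i1b and Il4i1. All 3 were dim in both groups and none had an unadjusted limma p under 0.05. Of the members, Il17rd, Il20rb and Il22ra1 had more than 1 probe set, and the second probe sets gave log2 fold changes of 0.00 for Il17rd, 0.17 and 0.04 for Il20rb and -0.16 for Il22ra1, with no unadjusted p under 0.05.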
